A study of Saccharomyces cerevisiae with 8 samples.

Results

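ALR1, ALR2, MNR2 and MRS2 encode 4 CorA-type magnesium transporters of budding yeast (Saccharomyces cerevisiae). Each gene was measured by 1 probe set, taken from 6504 probe sets that the platform's annotation assigns to exactly 1 gene, out of 9275 tested. The rule named these 4 genes of the CorA-type family and left out MFM1, a further gene of the family, which is given below with other magnesium genes. It used no measured value, but the genes were chosen with earlier results of these data known. Of the 4 transcripts, that of ALR1 stood far above the mock selections in RNA recovered with Upf1p, and that of MRS2 stood above them to a smaller degree. The values for ALR2 and MNR2 did not pass the test.

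Yeast cells take up magnesium, which ribosomes, ATP and many enzymes need, mainly through membrane proteins of the CorA type. This family is shared with bacteria and marked by a Gly-Met-Asn motif beside the membrane pore. In yeast, Alr1p is the main importer in the plasma membrane and Alr2p is its close relative there. Mnr2p sits in the membrane of the vacuole, where magnesium is stored, and Mrs2p forms the channel of the mitochondrial inner membrane. Upf1p is the RNA helicase of nonsense-mediated mRNA decay (NMD), the pathway that degrades mRNAs on which translation ends too early. The ALR1 mRNA has been reported as an NMD substrate.

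The study compared RNA bound with TAP-tagged Upf1p, which an affinity tag holds on IgG beads, with RNA from mock selections carried out in parallel. There were 4 arrays of each kind, and each tagged selection had its own mock, giving 4 independent pairs by the series' design text, numbered 1 to 4. All cells grew in rich YEPD medium at 30 ºC, with no magnesium treatment named, and the labels do not name the strains or say whether the mock cells carried any tag. The last purification step started from equal amounts of RNA of both kinds, and the unselected extract was not analysed here, so that more association with Upf1p, more of the transcript in the extract and more cells carrying it cannot be told apart.

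Values are array intensities that the authors had scaled. The median intensity of an array lay between 58.2 and 78.1. The transcript of the tagged gene itself, NAM7, was lower with the tag (log2 ratio -1.59, SE 0.25, limma adjusted p = 0.00178), and lay below the mock in 4 of 4 pairs. The position of its probe set with respect to the tag is not known here. Small nuclear and nucleolar RNAs (63 probe sets) had a median log2 ratio of -1.77, and since all arrays were scaled to a common mean, every ratio below is relative to the other transcripts.

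ALR1 (YOL130W, probe set 8704_at, chromosome XV, Watson strand by its systematic name) gave intensities of 1134, 1531, 1899 and 1549 in Upf1p-TAP selections 1 to 4. In mock selections 1 to 4 the same probe set gave 174, 259.8, 317 and 208. The lowest Upf1p-TAP value thus lay well above the highest mock value, and the groups did not overlap. The tagged array was brighter than its own mock by a factor of 6.53 in pair 1, 5.89 in pair 2, 5.99 in pair 3 and 7.44 in pair 4. The group means were 1528 ± 312 with Upf1p-TAP and 240 ± 62.6 in the mock (SD, n = 4). On the log2(intensity + 4.09) scale the ratio was 2.66 (SE 0.17, limma adjusted p = 3.77e-05), a 6.34-fold difference with a 95% confidence interval from 4.84 to 8.30. Only 0.292% of the single-gene probe sets had a larger ratio, which put ALR1 at rank 20 of 6504.

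The intensity of ALR1 differed between replicates of the same kind more than its ratio did. Its coefficient of variation was 20.4% over the Upf1p-TAP arrays and 26.1% over the mock arrays. In both groups array 3 was the brightest and array 1 the dimmest, so that these shifts were shared by the members of a pair. The ratios of the pairs lay between factors of 5.89 (pair 2) and 7.44 (pair 4), with log2 ratios of 2.54 and 2.87.

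**Figure D1:**
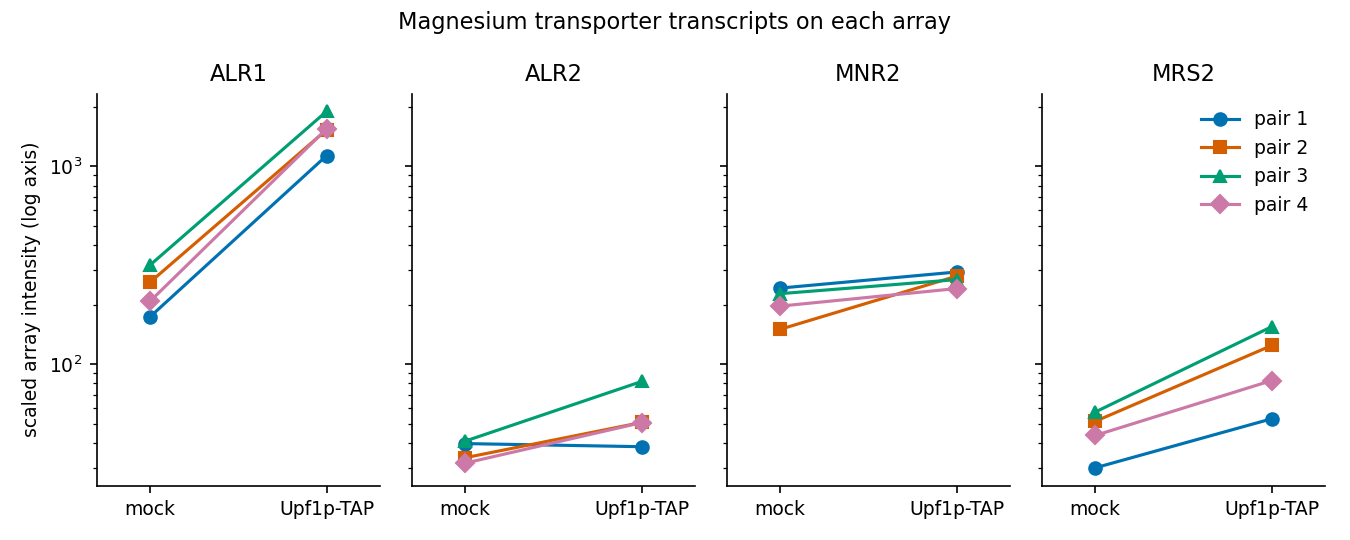
Scaled intensity (log axis) of each transporter transcript on the 4 mock and 4 Upf1p-TAP arrays; each line joins the arrays of 1 pair. The 4 ALR1 lines run steeply and in parallel from 174 to 317 up to 1134 to 1899, and the MRS2 lines rise less. Most MNR2 and ALR2 lines are shallower still, with ALR2 in pair 1 nearly flat. ALR2 in pair 3 and MNR2 in pair 2 rise more steeply than MRS2 in pair 1.

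ALR2 (YFL050C, probe set 5430_at, chromosome VI, Crick strand), the nearest relative of ALR1, gave intensities of 38.3, 50.8, 81.9 and 50.7 in Upf1p-TAP selections 1 to 4. In mock selections 1 to 4 it gave 39.8, 33.7, 40.9 and 31.7. The groups overlapped through pair 1, in which the tagged array was slightly dimmer than the mock, while the tagged array of pair 3 was the brightest of the 8. The log2 ratio was 0.51 (SE 0.23, limma adjusted p = 0.125) and lay above 0 in 3 of 4 pairs. Its 95% confidence interval ran from 0.992-fold to 2.05-fold, a range that includes no change. Apart from tagged array 3, every value lay below 66.6, the median of all tested values, and all lay above 16.0, the 25th percentile.

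Because ALR1 and ALR2 are similar genes, a probe set of one could in principle read transcripts of the other. Probe sequences were not analysed here, and this was not tested. The ALR2 probe set ranged from 31.7 to 81.9 on arrays where the ALR1 probe set ranged from 174 to 1899. Their log2 values correlated at Pearson r = 0.76 over the 8 arrays.

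MNR2 (YKL064W, probe set 10632_at, chromosome XI, Watson strand), the vacuolar member, gave intensities of 293, 279, 268 and 242 in Upf1p-TAP selections 1 to 4. In mock selections 1 to 4 it gave 243, 150.3, 228 and 197. The tagged array was the brighter one in 4 of 4 pairs, but the groups overlapped narrowly, since mock array 1 (243) exceeded tagged array 4 (242). The log2 ratio was 0.42 (SE 0.20, limma adjusted p = 0.148), with a 95% confidence interval from 0.975-fold to 1.83-fold. Pair 2, whose mock array was the dimmest, had a log2 ratio of 0.88, and the other pairs lay between 0.23 and 0.29. Without replicate 2 the log2 ratio was 0.26 (limma adjusted p = 0.467). MNR2 varied least of the 4 within the Upf1p-TAP group, with a coefficient of variation of 8.04%.

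MRS2 (YOR334W, probe set 8224_at, chromosome XV, Watson strand), the mitochondrial channel gene, gave intensities of 53.1, 125, 155 and 82.8 in Upf1p-TAP selections 1 to 4. In mock selections 1 to 4 it gave 30.0, 51.5, 57.4 and 43.7. The groups overlapped, because tagged array 1 (53.1) lay below mock array 3 (57.4), yet every tagged array was brighter than the mock of its own pair. The 4 pairs stood in the same order in both groups, with pair 1 dimmest and pair 3 brightest. The log2 ratio was 1.05 (SE 0.21, limma adjusted p = 0.00600), a 2.07-fold difference with a 95% confidence interval from 1.48 to 2.89. By pair, the log2 ratio lay between 0.75 (pair 1) and 1.37 (pair 3). Without the pair as a block the same ratio had limma adjusted p = 0.0354. Among single-gene probe sets, 8.96% had a larger ratio than MRS2.

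Counted together, 2 of the 4 transporter genes were higher in the Upf1p-TAP selections, 0 were lower and 2 did not pass. At an unadjusted p under 0.05 limma gave the same counts, 2 higher and 0 lower, and no share over all genes is given at that threshold. By adjusted p, 19.6% of all 5656 genes with 1 probe set each were higher and 15.2% were lower. The median log2 ratio was 0.03 over these genes, against 0.78 for the 4 transporters. Groups that did not overlap, with Upf1p-TAP above the mock, were found for 1 of the 4 transporters and for 16.1% of all genes. Of the 16 ratios within pairs (4 genes in 4 pairs), 15 were above 0, and the exception was ALR2 in pair 1. The called genes, ALR1 and MRS2, gave 4 of these each, and no share over all genes is given for this count. All 4 transporters were bright enough to stay in the table when probe sets below the 25th percentile of mean intensity were left out. These counts describe only these 4 genes, and MFM1, the family member left out, did not pass (log2 ratio 0.20, limma adjusted p = 0.620). With so few genes, they say nothing particular about the family.

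**Figure D2:**
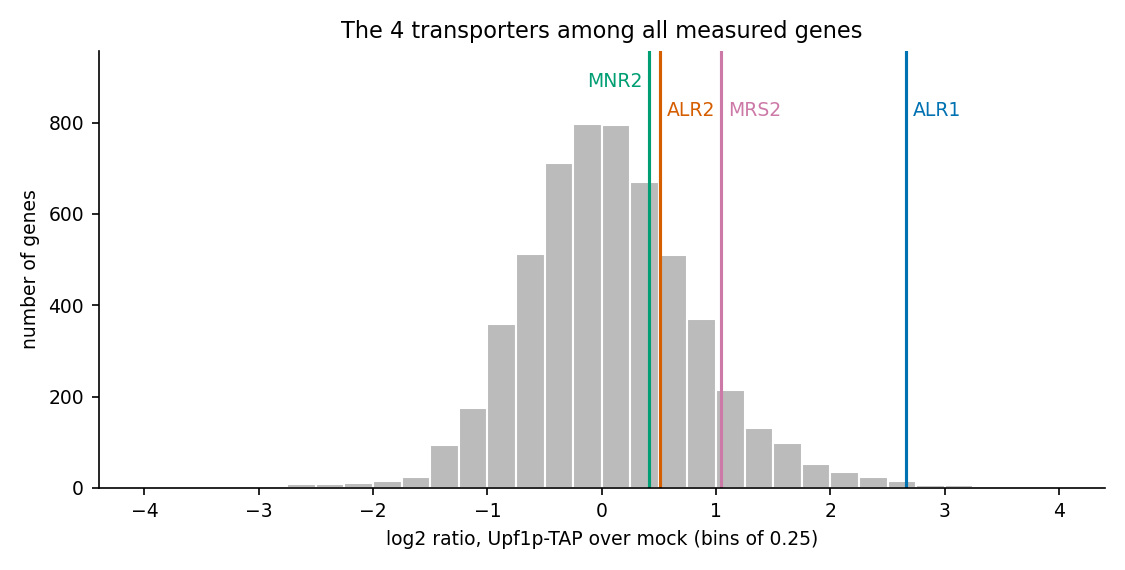
Number of genes by log2 ratio of Upf1p-TAP over mock, over 5656 genes with 1 probe set each, in bins of 0.25; coloured lines mark the 4 transporters. ALR1 (2.66) lies in the far right tail, MRS2 (1.05) on the right shoulder, and ALR2 (0.51) and MNR2 (0.42) within the bulk.

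The difference between the transporters was also measured directly, as the difference of their log2 ratios within each pair. The ratio of ALR1 exceeded that of ALR2 by 2.15 ± 0.46, that of MNR2 by 2.25 ± 0.40 and that of MRS2 by 1.62 ± 0.41 (log2 units, SD over 4 pairs). ALR1 had the larger ratio in 4 of 4 pairs in each of the 3 comparisons, and the smallest difference in any pair was 1.19, against MRS2. An exact two-sided sign-flip permutation test over the 4 pairs gave p = 0.125 for each (Benjamini-Hochberg adjusted p = 0.125), which is the smallest value that 4 pairs allow, so that this design cannot pass the threshold. The remaining 3 comparisons were added after the values were seen and are given without a test. MRS2 exceeded ALR2 by 0.54 ± 0.24 and MNR2 by 0.63 ± 0.35, each in 4 of 4 pairs. ALR2 and MNR2 differed by 0.09 ± 0.51 with either one ahead in 2 pairs, so that their order is within the spread. Intensities of different probe sets do not compare as amounts, and the levels of the 4 transcripts were therefore not ranked.

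Other genes of magnesium handling were read from a short list. MAM3, which encodes a vacuolar membrane protein related to the CNNM magnesium transporters of animals, and MME1, which encodes a mitochondrial magnesium exporter, were higher. MFM1, which encodes a CorA-type partner of Mrs2p in the mitochondrial inner membrane, did not pass. That made 2 of 3 higher and 0 lower by limma (2 and 0 at an unadjusted p under 0.05), with a median log2 ratio of 0.72. Over all genes 19.6% were higher and 15.2% lower, with a median of 0.03, and 3 genes are too few to set against that share.

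MAM3 gave 30.0, 80.2, 109 and 111 in Upf1p-TAP selections 1 to 4, against 26.8, 29.4, 56.6 and 40.8 in mock selections 1 to 4. Pair 1 was nearly level and the other 3 pairs were higher with the tag. The log2 ratio was 0.93 (SE 0.26, limma adjusted p = 0.0222). MME1 gave 148, 397, 194 and 224 with Upf1p-TAP and 131, 154, 123 and 135 in the mock, in the same order of selections. Its groups overlapped slightly, and the tagged array of pair 2 stood well above the other 3. The log2 ratio was 0.72 (SE 0.23, limma adjusted p = 0.0410).

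Neither call was stable. Without the pair as a block, limma adjusted p was 0.0930 for MAM3 and 0.0844 for MME1. Leaving out pair 2, 3 or 4 also ended both calls, with the highest adjusted p at 0.107 for MAM3 (without replicate 4) and 0.185 for MME1 (without replicate 2, log2 ratio 0.51). The call of MME1 ended after median centring too (adjusted p = 0.0708), and after quantile normalization (adjusted p = 0.0822).

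MFM1 had 2 probe sets. The brighter, 7829_at, gave 55.1, 34.8, 19.3 and 29.0 with Upf1p-TAP and 23.8, 29.4, 26.5 and 31.6 in the mock, in selections 1 to 4. Its log2 ratio of 0.20 (SE 0.27, limma adjusted p = 0.620) joined pairs that went opposite ways, from -0.39 in pair 3 to 1.08 in pair 1. The other probe set, 2545_at, lay between 0.248 and 12.1 on all arrays, near the bottom of the scale, with a log2 ratio of -0.04.

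**Figure D3:**
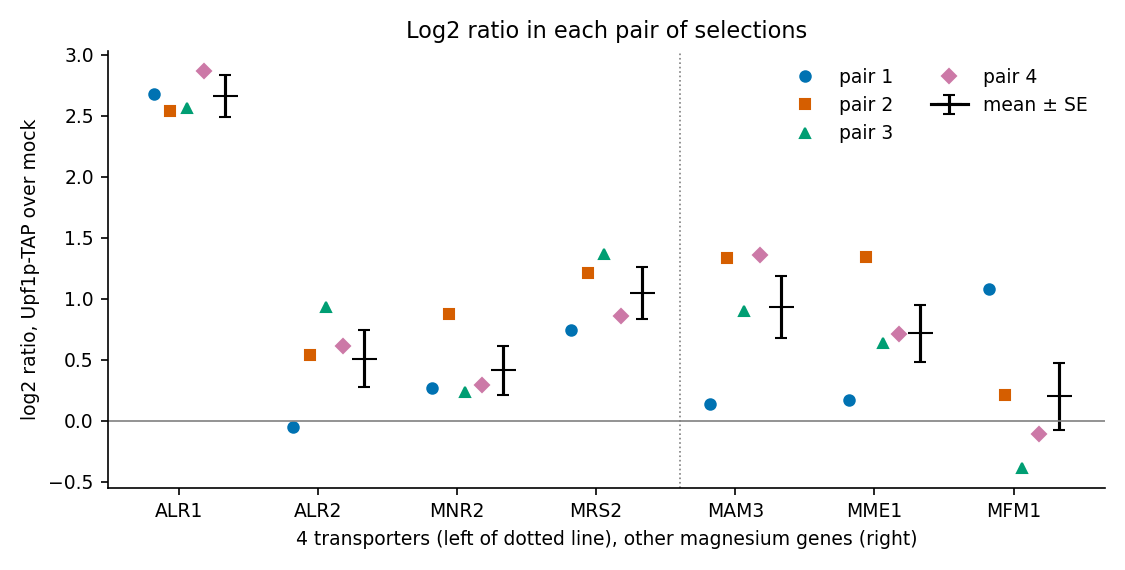
Log2 ratio of Upf1p-TAP over mock in each of the 4 pairs (coloured symbols) and the mean with limma's SE (black), for the 4 transporters and 3 other magnesium genes. The ALR1 pairs lie close together between 2.54 and 2.87, whereas MAM3 and MME1 lie near 0 in pair 1 and reach 1.36 (pair 4) and 1.34 (pair 2), and MFM1 runs the other way with its highest value in pair 1.

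Mrs2p takes its name from mitochondrial RNA splicing, since cells without it fail to splice group II introns of mitochondrial transcripts. A list of 8 nuclear genes was linked to mitochondrial intron splicing, by function or as suppressors of splicing defects. Of these, 4 were higher in the Upf1p-TAP selections and 0 were lower by limma (4 and 0 at an unadjusted p under 0.05). By adjusted p, the shares over all genes were 19.6% and 15.2%. The median log2 ratio of the list was 0.66, and 8 genes are too few to set against those shares. PET54, which encodes a protein that acts in COX1 intron splicing and in COX3 translation, had mean intensities of 407 ± 88.6 with Upf1p-TAP and 169.5 ± 29.2 without (SD, n = 4). Its log2 ratio was 1.23 (SE 0.23, limma adjusted p = 0.00361). MRS4 (0.97) and MRS3 (0.94), whose products are mitochondrial iron carriers first found as suppressors of splicing defects, were higher, each in 4 of 4 pairs. MSS18, a splicing factor gene, had a log2 ratio of 0.87, and its call ended narrowly without replicate 4 (limma adjusted p = 0.0508). MRS1 (0.46), MSS116 (-0.19), NAM2 (-0.30) and CBP2 (-0.30) did not pass, and are named here after their values were seen, to account for the whole list. MRS2 was thus close in ratio to MRS3 and MRS4, and no difference between them was tested.

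Of 16 measured genes for potassium, sodium, calcium and proton transport, 2 were higher, 1 was lower and 13 did not pass. Over all genes 19.6% were higher and 15.2% lower, and the median log2 ratio of the list was 0.01. At an unadjusted p under 0.05 limma gave 3 higher and 4 lower, so that here the counts differed from the adjusted ones. By adjusted p, the lower count was 4 after median centring and 4 after quantile normalization. MID1, which encodes a subunit of the plasma membrane calcium channel, had mean intensities of 254 ± 69.6 with Upf1p-TAP and 123 ± 16.5 without (SD, n = 4). Its log2 ratio was 0.98 (SE 0.20, limma adjusted p = 0.00610). PMR1, the Golgi pump for calcium and manganese, had a log2 ratio of 0.73 (limma adjusted p = 0.0197). VNX1, a vacuolar exchanger of sodium and potassium for protons, was lower at -0.76 (limma adjusted p = 0.0223). The calls of PMR1 and VNX1 each ended in 3 of 4 cases when 1 pair was left out, with the highest limma adjusted p at 0.0922 and 0.0858, both without replicate 4. PMC1 (-0.54), the vacuolar calcium pump, did not pass. The highest ratio on this list was 0.98 and that of ALR1 was 2.66.

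The genes on either side of each transporter were examined to see whether a ratio was shared along the chromosome. By the gene order of the RefSeq R64 assembly, ALR1 lies between YOL131W and VPS68. VPS68, a gene for vacuolar protein sorting, gave 546, 776, 1035 and 779.6 with Upf1p-TAP and 671, 898, 917 and 755 in the mock, in selections 1 to 4. The groups overlapped fully, and the log2 ratio was -0.07 (SE 0.17, limma adjusted p = 0.795). YOL131W lay between 0.385 and 5.47 on all arrays, near or below the added offset, with a log2 ratio of 0.03. The high ratio of ALR1 was therefore not seen in VPS68, and YOL131W was too dim to tell.

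Of all 8 neighbours, 1 was higher, 1 was lower and 6 did not pass, which is near the 19.6% higher and 15.2% lower of all genes. The higher one was YFL051C, beside ALR2, with mean intensities of 36.4 ± 10.5 with Upf1p-TAP and 15.7 ± 1.42 without (SD, n = 4). Its log2 ratio was 1.00 (SE 0.23, limma adjusted p = 0.0103). On the other side of ALR2, SWP82, a gene of the SWI/SNF chromatin remodelling complex, had a log2 ratio of 0.35 that did not pass (limma adjusted p = 0.294). Its pairs stood at -0.25, 0.26, 0.79 and 0.61, and those of ALR2 stood at -0.05, 0.54, 0.93 and 0.62, so that pair 1 was lowest and pair 3 highest in both genes. The same held on chromosome XV for MRS2 (0.75 and 1.37) and VPS68 (-0.30 and 0.17), so that it was not particular to this place. YFL051C was lowest in pair 2 (0.70).

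MNR2 lies between YET1, which encodes an endoplasmic reticulum protein, and YKL063C. Their log2 ratios were -0.53 (limma adjusted p = 0.0631) and -0.23 (limma adjusted p = 0.362), and both lay below 0 in 4 of 4 pairs, opposite in sign to MNR2. YET1 passed as lower after median centring (-0.67, adjusted p = 0.0179) and after quantile normalization (-0.62, adjusted p = 0.0280). MRS2 lies between VMA4, a subunit gene of the vacuolar proton pump, and ALA1, the alanyl-tRNA synthetase gene. VMA4 had a log2 ratio of -0.29 that did not pass, and ALA1 was lower at -0.62 (SE 0.18, limma adjusted p = 0.0253). Without the pair as a block the ALA1 call ended (limma adjusted p = 0.0835), and so it did when pair 2, 3 or 4 was left out, with an adjusted p of at most 0.119 (without replicate 4).

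**Figure D4:**
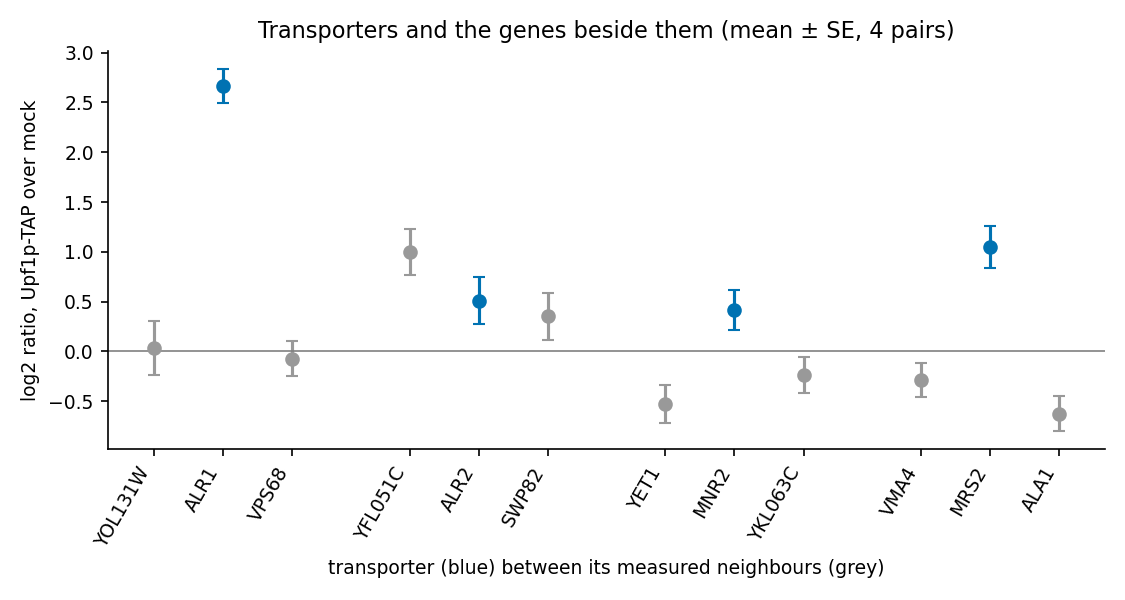
Mean log2 ratio of Upf1p-TAP over mock with limma's SE (4 pairs) for each transporter (blue) between the measured genes beside it (grey). ALR1 (2.66) stands above VPS68, which is near 0, and YOL131W, which was too dim to tell. MRS2 (1.05) lies between genes at -0.29 and -0.62, and ALR2 (0.51) lies between genes that are also above 0.

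The genes most like ALR1 over the 8 arrays were found by the distance between log2 values, each probe set centred on its own mean. Among 5527 other single-gene probe sets with a mean intensity above the 25th percentile, the nearest was CPA1, which encodes a subunit of the arginine-specific carbamoyl phosphate synthetase (distance 0.53, Pearson r = 0.99 over 8 arrays). PCK1 (0.56), the gene of the gluconeogenic enzyme phosphoenolpyruvate carboxykinase, followed. The next were PAU4 (0.60), a seripauperin gene with near-identical relatives, PEX35 (0.66), a gene of peroxisome abundance, and SSD1 (0.68), which encodes an RNA-binding protein. The median distance to ALR1 over those probe sets was 3.92, and the distances of MRS2, ALR2 and MNR2 were 2.39, 3.13 and 3.38. The likeness rests on the step between the groups, which all 5 share, and is a description only.

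PCK1 came closest to ALR1 in its ratio by pair. Its tagged array was brighter than the mock by a factor of 7.19, 6.46, 7.09 and 7.90 in pairs 1 to 4, from mock intensities between 58.6 and 74.6. CPA1 had factors of 5.50, 3.81, 6.18 and 6.35, and pair 2 was its lowest, as it was for ALR1. PEX35 showed the same dip more deeply, with 3.32 in pair 2 and 6.87 to 7.28 in the others. SSD1 instead was lowest in pair 1 at 4.18 and highest in pair 4 at 9.89.

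The calls of all 4 transporters were the same under each of the 11 alternative settings tried. ALR1 and MRS2 passed in all 11. ALR2 and MNR2 did not, and their lowest limma adjusted p was 0.0784 (without replicate 1) and 0.136 (filter on dim probe sets). The log2 ratio of ALR1 ranged from 2.52 (median centring) to 2.71 (without replicate 2), and that of MRS2 from 0.89 (quantile normalization) to 1.15 (without replicate 1). ALR2 ranged from 0.37 to 0.70 and MNR2 from 0.26 to 0.48. Median centring moved the median log2 ratio of all probe sets to -0.14, and the 4 transporters stayed above 0 there.

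**Figure D5:**
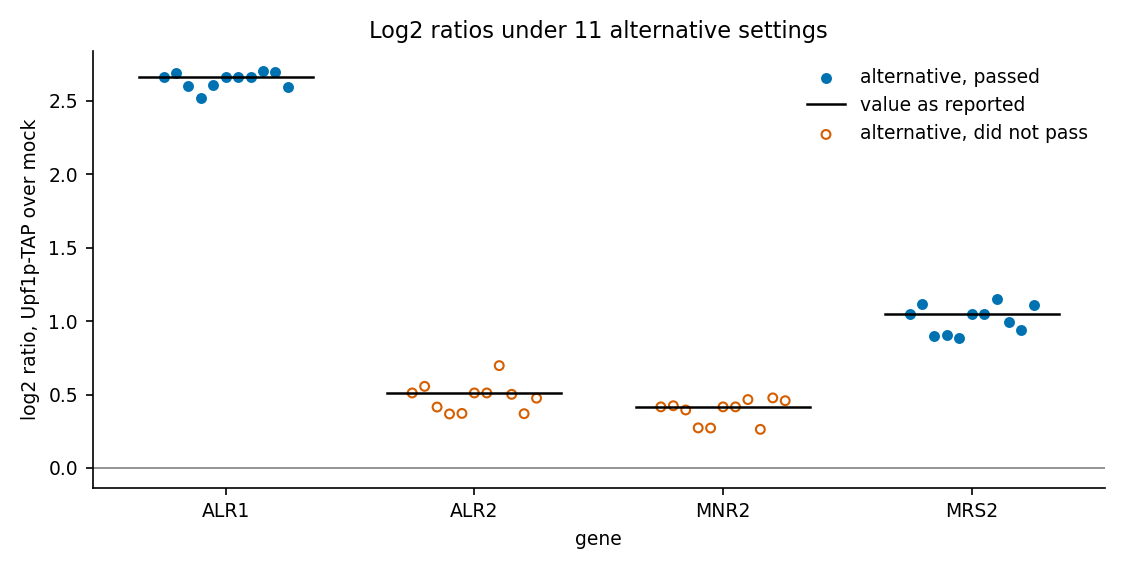
Log2 ratio of each transporter under 11 alternative settings (circles, filled where limma's adjusted p passed the threshold of 0.05) beside the reported value (black line). The ALR1 circles lie between 2.52 and 2.71 and the MRS2 circles between 0.89 and 1.15, all filled, while those of ALR2 and MNR2 are all open.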

How the data were processed

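The authors deposited 1 table of linear array intensity values with 9335 probe sets on 8 Affymetrix Yeast Genome S98 arrays. The submitters' processing notes name GCOS, without a version. The deposited intensity values show scaling, since their trimmed means (2% cut from either end) ran from 250.2 to 250.3. No scanner file or detection call was used here, and precision is limited by the number of arrays. After 60 control probe sets were left out, 9275 were tested. Of these, 6504 had 1 gene in the platform annotation, 328 had several and 2443 had none, and symbols were updated through RefSeq R64.

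limma 3.58.1 (R 4.3.3) was run on log2(intensity + 4.09), whose offset is the 10th percentile of tested values, with group and pair (a block) in the design, with an intensity trend and Benjamini-Hochberg adjustment over all 9275 probe sets, threshold 0.05, two-sided. The fit was run on simulated data in which 200 bright probe sets were changed. That is fewer than were called here, and changes in dim probe sets were not covered. As a check of the pairing, which the series' design text states, deviations from group means correlated at r = 0.18 to 0.55 within pairs and -0.54 to 0.35 otherwise. The labels do not say whether pairs came from separate cultures, so p-values cover only the spread among these selections.

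The transporters and the lists were chosen with earlier results of these data known. Named genes were the transporters, NAM7, the magnesium list, the called or 4 smallest-p genes of the other lists, the chromosomal neighbours and the 5 genes nearest to ALR1. A gene with several probe sets was shown by a plain one, then the brightest. ENA1 and ENA2 had no single-gene probe set. Alternatives were another offset or none, other scalings, a filter on dim probe sets, no trend, no pair block and leaving out each pair.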

Additional observations from a re-analysis of the deposited data

How the results depend on the processing

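The test called 1642 of the 9275 probe sets higher and 1249 lower, so that 56.8% of the calls were higher, against 49.6% after quantile normalization and 42.7% after median centring. Leaving out 1 pair gave 1076 to 1384 higher and 775 to 953 lower. Of the magnesium list, 2 genes were higher as reported, 0 without the replicate block, 1 after median centring, 1 after quantile normalization and 0 to 2 when 1 pair was left out. The other cation transporters had 1 to 2 higher and 0 to 1 lower when 1 pair was left out, and 4 lower after median centring and 4 after quantile normalization, where PMC1, VCX1 and NHA1, the latter pair named after their values were seen, passed too. The removal of the block also ended the call of ALA1, and changed no call of the 4 transporters. The cause of these changes was not tested. The difference between the log2 ratios of ALR1 and each other transporter kept its sign under 6 alternatives, at 1.96 to 2.33 (ALR2), 2.14 to 2.44 (MNR2) and 1.49 to 1.76 (MRS2). No transporter had more than 1 probe set, so averaging probe sets gave no value. Dim probe sets such as YOL131W and MFM1's second lie near the offset, where a change would be hard to see.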

Other observations

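Pair 1 was the lowest pair for 4 of the 7 magnesium genes described. The log2 ratios in pair 1 were -0.05 for ALR2, 0.75 for MRS2, 0.14 for MAM3 and 0.17 for MME1, each the lowest of its 4 pairs. MNR2 stood at 0.27 in pair 1, with its lowest value, 0.23, in pair 3. ALR1 stood at 2.68 in pair 1, its second highest, and MFM1 had its highest value there on both probe sets (1.08 and 0.72). Pair 1 was also the lowest for SWP82 (-0.25) and VPS68 (-0.30), which are not magnesium genes, and no share over all genes is given. These values were picked out after they were seen.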
